A study of Mus musculus with 34 samples.

Results

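The noncoding RNA genes described here are Rn7sk, Rpph1, Rmrp, Rn7s1, Rn7s2 and Terc, which encode 7SK, the RNA of RNase P, the RNA of RNase MRP, 7SL and the telomerase RNA. They were taken by symbol from a table of 51368 mouse genes. The symbol Rmrp belongs to 2 identifiers, so the genes with values amount to 6 identifiers, and the Rmrp counts were also summed. Rn7s2 has no row of values in the table and was not analysed here.

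Values came from 34 RNA-seq libraries made from liver and heart RNA of 1 wild-type C57BL/6J mouse, 12 weeks old. Liver RNA was prepared by polyA selection, which captures RNA by its tail (9 libraries, batch 1), by hybridisation pull-down of ribosomal RNA (rRNA; 9 libraries, batch 2) or by enzymatic digestion of rRNA (9 libraries, batch 2). Each of these sets holds 1 library for every combination of 3 PCR ramp rates (slow, medium, fast) and 3 fragment lengths (short, medium, long, with no sizes in bases in the labels). Unselected liver libraries, with neither step, numbered 3 in batch 1 and 3 in batch 2, and there was 1 unselected heart library in batch 1; all 7 had a slow ramp and medium fragments. Selected libraries started from 200 ng of RNA and unselected ones from 20 ng, and each method used its own kit, so method, kit and input cannot be told apart. PolyA libraries were all of batch 1 and those of the other methods of batch 2, so only unselected liver libraries link the batches. All libraries of a tissue share 1 animal, so p-values measure the spread between library preparations and not between animals.

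Libraries held 19.9 to 41.4 M estimated counts (M, 1000000 counts), apart from the pull-down library with slow ramp and long fragments, which held 1.13 M. Genes typed as rRNA, with Lars2, took 84.8% to 85.7% of the counts in unselected liver libraries, 14.2% to 24.5% after pull-down, 0.363% to 1.12% after digestion and 0.214% to 0.406% after polyA selection. Of 6 cardiomyocyte markers, 4 (Myh6, Tnni3, Myl2 and Nppa) had 0 counts in all 3 unselected liver libraries of batch 1, while Myh6 reached 15083 normalised CPM (counts per 1000000 counts, after scaling by the TMM method) in heart. Albumin (Alb) stood at 37988 normalised CPM on average in those liver libraries and at 121 in heart.

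These RNAs act as scaffolds or catalysts and are not translated. 7SK holds the elongation kinase P-TEFb inactive, RNase P trims the leader of precursor transfer RNAs, RNase MRP takes part in rRNA processing, and 7SL is the core of the signal recognition particle (SRP), which brings nascent secretory proteins to the endoplasmic reticulum, a heavily used route in hepatocytes. RNA polymerase III makes these 4 RNAs, and its transcripts usually end in a short run of U and carry no poly(A) tail. Telomerase RNA, the template for telomere repeats, is made by RNA polymerase II and belongs to the H/ACA class, whose members carry the trinucleotide ACA near the 3′ end.

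The 3′ ends are shown because polyA selection depends on them, and Rmrp is shown whole because 2 annotated genes share its sequence. Sequences are from the GENCODE M21 transcripts (GRCm38), 5′ to 3′. Capitals mark the end run of T in Rn7sk, the last ACA in Terc, and in Rmrp the bases that only the longer of its annotated transcripts holds. Rpph1 ends in no T and has no capitals.
Rn7sk, bases 232 to 331: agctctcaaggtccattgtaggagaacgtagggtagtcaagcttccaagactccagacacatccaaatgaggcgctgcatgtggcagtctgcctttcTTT
Rpph1, bases 220 to 319: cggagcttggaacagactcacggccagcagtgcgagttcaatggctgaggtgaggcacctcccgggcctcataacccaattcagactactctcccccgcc
Rmrp, bases 1 to 281: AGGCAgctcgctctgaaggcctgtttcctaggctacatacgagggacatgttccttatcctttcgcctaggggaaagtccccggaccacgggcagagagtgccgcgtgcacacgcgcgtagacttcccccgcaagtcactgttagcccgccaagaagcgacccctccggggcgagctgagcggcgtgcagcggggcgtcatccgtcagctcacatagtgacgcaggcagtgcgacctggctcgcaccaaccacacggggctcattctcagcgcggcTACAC
Terc, bases 324 to 423: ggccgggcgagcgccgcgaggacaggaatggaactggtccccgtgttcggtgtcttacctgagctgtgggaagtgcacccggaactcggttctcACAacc

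Rn7sk (ENSMUSG00000065037) lies at chr9:78175303-78175633 on the minus strand, is 331 bases long and ends in 3 T. The closest gene, C920006O11Rik, is 281 bases away on its right side and Ick is 3196 bases away on the left. Rpph1 (ENSMUSG00000092837) lies at chr14:50807449-50807767, minus strand, 319 bases, with Parp2 74 bases away on the opposite strand. Exons of Ccnb1ip1 on the same strand cover 233 of its bases, but Ccnb1ip1 itself had at most 8.94 counts in any library.

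Rmrp has a 271-base model typed as a ribozyme (ENSMUSG00000088088, chr4:43492788-43493058, minus strand) and a 281-base model typed as a lincRNA (ENSMUSG00000115420, chr4:43492783-43493063). The longer one holds the whole of the shorter one with 5 more bases at either end, so only reads that reach those ends can tell them apart, and the split between the shorter and the longer identifier is uncertain. Exons of Ccdc107 on the opposite strand cover 124 of its bases. Rn7s1 (ENSMUSG00000099021) lies at chr12:69159295-69159594, plus strand, 109 bases from Rps29, and exons of same-strand genes typed as miRNA cover 77 and 70 of its bases. Its 300 bases are identical to those of Rn7s2 (chr12:69361182-69361481, minus strand), so values under Rn7s1 can include RNA of both genes.

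Terc (ENSMUSG00000064796) lies at chr3:96414437-96414859, minus strand. Its model is 423 bases long against 397 in RefSeq, its last ACA stands 3 bases from the 3′ end, and the closest gene is Gm21960 at 1076 bases. The polyadenylation hexamer AATAAA, searched on the transcript strand, occurs in no member transcript and in 1778 of 12527 annotated transcripts of 271 to 423 bases (14.19%). The longest run of A in a member transcript was 2 to 5 bases.

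In unselected liver RNA, 7SL dominated. Rn7s1 measured 28298, 28205 and 26830.5 normalised CPM in batch 1 and 25968, 21463 and 24030 in batch 2. Rn7sk measured 4339, 4323 and 4222 in batch 1 and 4006, 3622 and 3832 in batch 2. The batch 1 libraries were all above the batch 2 libraries for both RNAs. The share of all genes that separate in this way is not given here, so this is not read as particular to them.

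The RNase RNAs were rarer. Rpph1 stood at 846, 838 and 777 normalised CPM in batch 1 and at 712, 596 and 672 in batch 2. The summed Rmrp identifiers gave 353, 350.3 and 334 in batch 1 and 263, 239 and 278 in batch 2. Again no batch 2 library reached the lowest of batch 1, with no share of all genes to set beside it.

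Terc was listed at 0 counts in all 6 unselected libraries. A count of 0 in 1 library allows a level of up to 0.618 to 0.667 normalised CPM in these libraries (3 counts; counting error only).

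Per kilobase of transcript, the order of levels was Rn7s1, Rn7sk, Rpph1, summed Rmrp and Terc in every library except 1 polyA library, where Rmrp exceeded Rpph1. In batch 1 unselected libraries the levels were 92593 ± 2739 normalised CPM per kilobase for Rn7s1, 12975 ± 191 for Rn7sk, 2571 ± 118 for Rpph1 and 1231 ± 37.1 for Rmrp (SD, n = 3), so each neighbour pair differed by more than its spread. The library ranges of Rpph1 and Rmrp overlapped after polyA selection (0.517 to 1.51 against 0.198 to 1.03) and after pull-down (1743 to 11584 against 528 to 3442), although each pull-down library by itself kept Rpph1 higher. Rn7s1 made up 83.6% of the members' counts in unselected libraries of batch 1, 83.4% in batch 2, 91.3% in polyA libraries, 86.5% in pull-down libraries and 81.3% in digestion libraries (means).

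**Figure D1:**
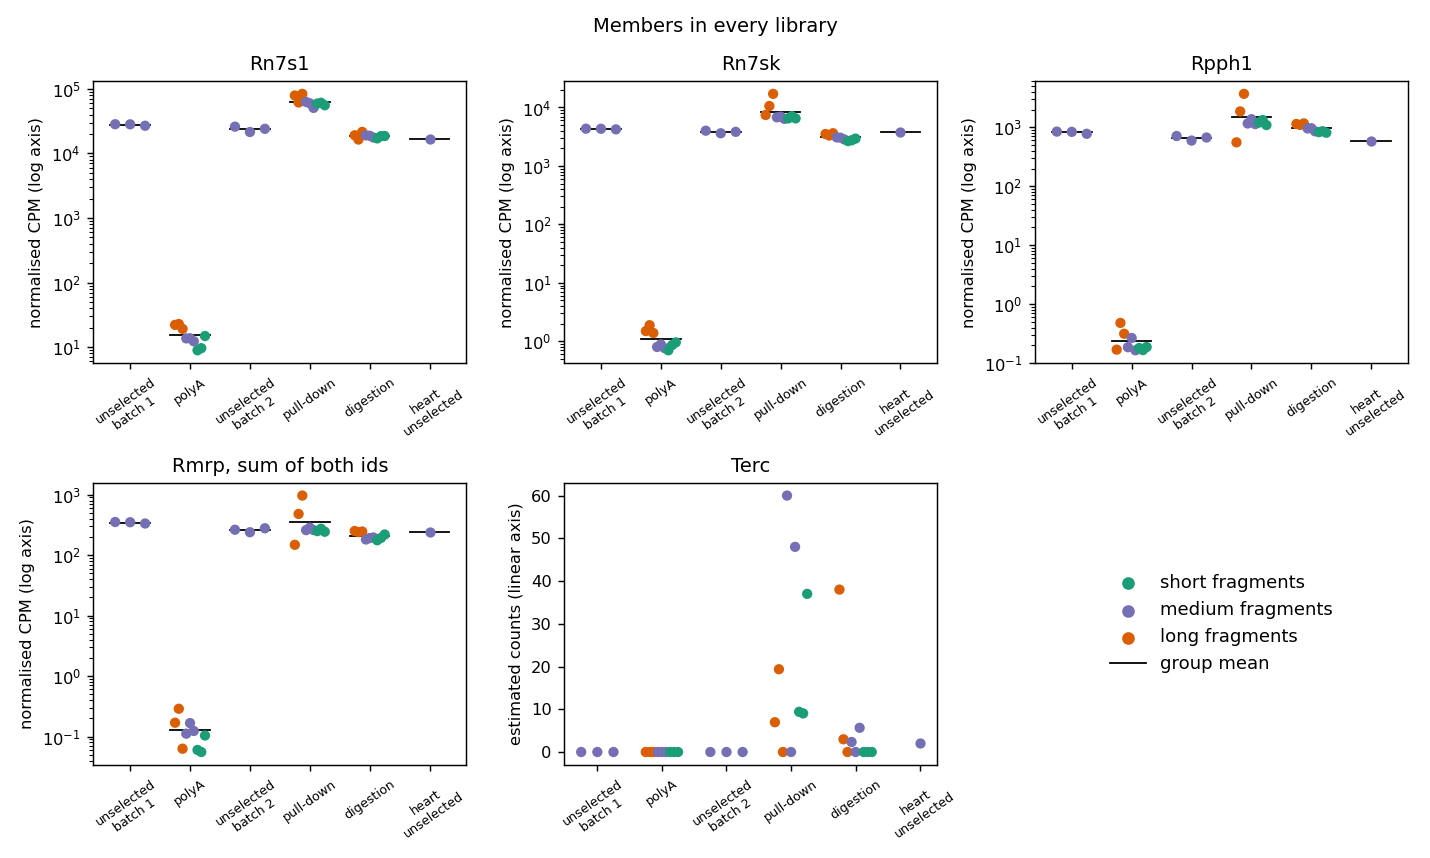
Each point is 1 library, coloured by fragment length; the y axes give normalised CPM on a log scale, and estimated counts on a linear scale for Terc, and black lines are group means. For Rn7s1, Rn7sk, Rpph1 and summed Rmrp the polyA libraries lie far below all other groups, with fitted folds of 1256 to 7705 against unselected RNA of batch 1, pull-down and digestion, and the long-fragment pull-down libraries spread widely for Rpph1 and Rmrp.

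The batches were compared in the edgeR quasi-likelihood fit over 33 liver libraries. None of the 6 identifiers passed an adjusted p of 0.05, and neither did any gene of 15422 (0% called), with 848 genes at an unadjusted p under 0.05; DESeq2 called 18 genes. With the 6 unselected libraries alone, edgeR called 4 members lower in batch 2, among 39 genes called in either direction. The share of the genes tested in that fit is not given here. These were Rn7sk with a log2 difference of -0.15 (SE 0.0327, adjusted p = 0.0239), Rn7s1 with -0.21 (SE 0.0380, adjusted p = 0.00554), Rpph1 with -0.30 (SE 0.0455, adjusted p = 0.000366) and the shorter Rmrp identifier with -0.69 (SE 0.0688, adjusted p = 2.98e-07). The longer Rmrp identifier moved the other way, by 0.35 (adjusted p = 0.191), and the replicate block, which pairs libraries only by number, called it too. Each method below is therefore set against the unselected libraries of its own batch.

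PolyA selection removed nearly all signal of the polymerase III RNAs. Rn7s1 ranged from 8.93 to 22.8 normalised CPM (median 13.7) over the 9 polyA libraries, and Rn7sk from 0.701 to 1.88 (median 0.885). Rpph1 ranged from 0.165 to 0.481 (median 0.186) and summed Rmrp from 0.0555 to 0.288 (median 0.112). No polyA library came near the lowest unselected library.

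The drop was 4362-fold for Rn7sk (log2 change -12.09, SE 0.187, adjusted p = 3.10e-29, edgeR) and 1977-fold for Rn7s1 (log2 change -10.95, SE 0.186, adjusted p = 9.19e-29). It was 3412-fold for Rpph1 (log2 change -11.74, SE 0.355, adjusted p = 4.83e-22) and 2550.5-fold for summed Rmrp (log2 change -11.32, SE 0.370, adjusted p = 3.22e-21). Of the 6 identifiers, 5 fell and Terc was at 0 in both groups, where 24.8% of all 15422 genes fell and 50.4% passed in either direction. The members' median log2 change was -11.16 against 0.04 over all genes. The order of the changes, Rn7sk most and Rn7s1 least, was not tested. Together the members took 0.749% of the counts in unselected libraries of batch 1 and 0.00233% after polyA selection (means, n = 3 and 9). Of the counts outside rRNA genes and Lars2 they took 5.19% and 0.00234%.

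Pull-down left more of 7SL, 7SK and RNase P RNA, relative to other genes, than no selection did. Rn7s1 ranged from 50683 to 83615 normalised CPM (median 60769), above all 3 unselected libraries of batch 2. Rn7sk ranged from 6393 to 17105 (median 6964), also with no overlap. How many of all genes have no overlap is not given here. Rpph1 ranged from 556 to 3695 (median 1199.7), and 1 of the 9 libraries lay below all 3 unselected ones.

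Rn7s1 was higher by a log2 change of 1.33 (SE 0.175, adjusted p = 3.68e-07, edgeR), Rpph1 by 1.12 (SE 0.283, adjusted p = 0.00226) and Rn7sk by 0.99 (SE 0.165, adjusted p = 1.62e-05). These 3 of 6 identifiers rose, where 17.5% of all genes rose and 32.8% passed in either direction. Without the shallow library the changes were 1.30, 0.80 and 0.82, and all 3 still passed. Summed Rmrp ranged from 148 to 967 (median 260.4) around the unselected 239 to 278, with a log2 change of 0.33 (95% interval -0.21 to 0.86, adjusted p = 0.398), and 0.02 without the shallow library. On the TMM scale the median gene moved by 0.06. On library totals it moved by 2.31, and against that median Rn7s1, Rn7sk and Rpph1 were higher by 0.74 to 1.29 under all 8 normalisations, filters, tests and library sets tried. Of the genes that passed, 53.3% were higher with TMM, 41.1% with DESeq2, 26.3% on totals without rRNA genes and Lars2 and 99.7% on library totals.

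After digestion, Rn7s1, Rn7sk and Rpph1 had smaller log2 changes from unselected RNA than after pull-down and did not pass the test, while the longer Rmrp identifier fell. Rn7s1 ranged from 16397 to 21541 normalised CPM (median 18597) and Rn7sk from 2663 to 3628 (median 3038), and for each of them 8 of the 9 libraries lay below all 3 unselected ones. Rpph1 ranged from 811 to 1165 (median 956), above all 3 unselected libraries. No share of all genes outside the unselected range is given here. Summed Rmrp ranged from 176 to 251 (median 196).

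The log2 changes were -0.43 for Rn7s1 (95% interval -0.76 to -0.11, adjusted p = 0.0789, edgeR), -0.39 for Rn7sk (95% interval -0.70 to -0.08, adjusted p = 0.104) and 0.57 for Rpph1 (95% interval 0.02 to 1.12, adjusted p = 0.195). None of these 3 passed the threshold. For Rpph1 the unadjusted p was 0.0529 (edgeR), although its interval leaves out 0. The longer Rmrp identifier fell, with a log2 change of -1.48 (SE 0.408, adjusted p = 0.0123), the only 1 of the 6 to pass, where 7.64% of all genes fell and 14.7% passed in either direction. The summed Rmrp, which does not depend on how reads were split between identifiers, changed by -0.27 (adjusted p = 0.584). The call of the longer identifier was lost without replicate 1 of the unselected libraries (adjusted p = 0.0755) and with DESeq2 (adjusted p = 0.115). DESeq2 in turn called Rn7s1 (-0.47, adjusted p = 0.0309). Without the shallow pull-down library, which is part of the same fit, Rn7sk (-0.44, adjusted p = 0.000732) and Rn7s1 (-0.44, adjusted p = 0.0410) also passed. Of the genes that passed, 48.1% were higher with TMM, 34.2% with DESeq2, 59.9% with no gene filter, 71.7% on totals without rRNA genes and Lars2 and 99.7% on library totals.

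**Figure D2:**
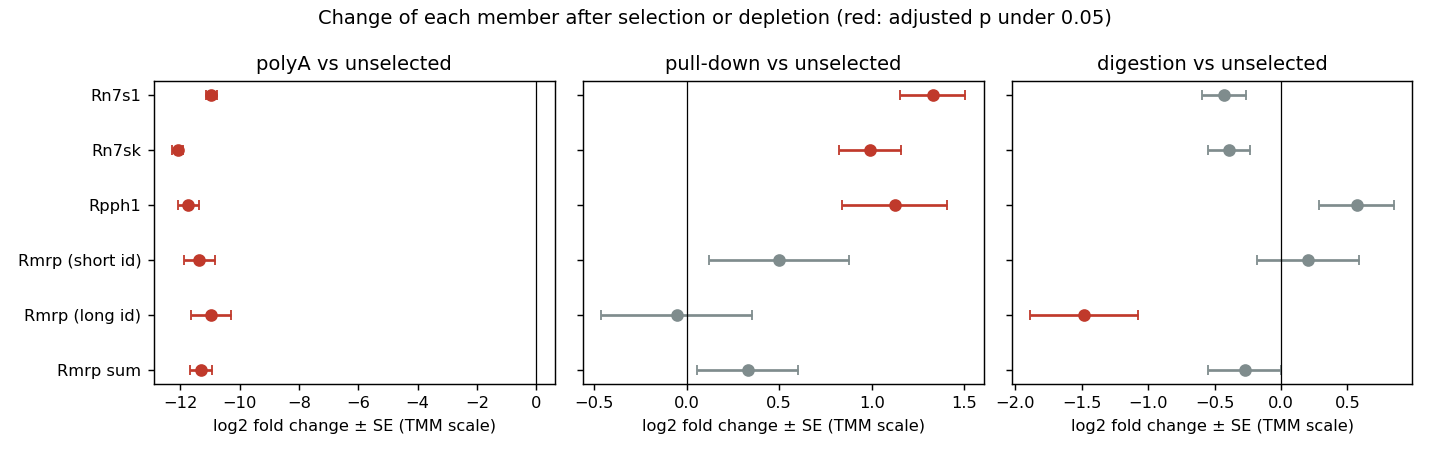
Points are log2 changes from each batch's own unselected libraries with standard errors, each panel on its own x axis; red marks an adjusted p under 0.05. After polyA selection the values run from -12.09 (Rn7sk) to -10.95 (Rn7s1), and after pull-down Rn7s1, Rn7sk and Rpph1 stand at 1.33, 0.99 and 1.12.

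The libraries with the slow ramp and medium fragments match the unselected ones in both settings. For pull-down against unselected they gave 1.05 for Rn7s1, 0.71 for Rn7sk, 0.74 for Rpph1 and -0.04 for summed Rmrp. For digestion they gave -0.46, -0.45, 0.35 and -0.44. These are comparisons of 1 library with 3, so the spread comes from the unselected libraries alone and the values are given without a call.

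Set directly against pull-down, digestion gave lower levels of 7SL and 7SK. Rn7s1 was lower, with a log2 change of -1.76 (SE 0.105, adjusted p = 1.49e-15, edgeR) and Rn7sk with -1.38 (SE 0.0969, adjusted p = 8.00e-14), both with no overlap between the 9 and 9 libraries. The share of all genes with no overlap is not given here. Rpph1 was lower, with -0.55 (SE 0.159, adjusted p = 0.00280) and the longer Rmrp identifier, with -1.43 (SE 0.231, adjusted p = 2.48e-06), with overlap. With Terc, 5 of the 6 identifiers were lower, where 36.0% of all genes were and 70.7% passed in either direction. Terc passed the gene filter only through its counts after pull-down, so it adds no support here. Of the genes that passed, 49.1% were higher with TMM, 73.7% on totals without rRNA genes and Lars2 and 90.3% on library totals. Without the shallow pull-down library Rpph1 gave -0.33 (adjusted p = 0.0117), and its call was lost on totals without rRNA genes and Lars2 (-0.30, adjusted p = 0.0990) and on library totals. Summed Rmrp was lower, with -0.60 (adjusted p = 0.000913), and with -0.40 without the shallow library (adjusted p = 0.00130); this call was lost on library totals (-0.05, adjusted p = 0.766). PolyA selection lay below both other methods for all 6 identifiers, with Terc again adding no support. Of all genes, 36.2% were lower than after pull-down (72.6% in either direction) and 42.2% lower than after digestion (80.6%). Of the genes that passed, 50.1% were higher than after pull-down with TMM and 73.1% on library totals; against digestion the shares were 47.6% and 31.5%. For the 4 polymerase III RNAs, with Rmrp summed, the log2 changes ran from -12.91 to -10.30, beside batch differences of -0.41 to -0.17 between unselected libraries in the same fit.

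Terc was near the limit of detection throughout. All 9 polyA libraries were listed at 0. Pull-down libraries held 60, 48, 37, 19.4, 9.40, 9.02, 6.97, 0 and 0 estimated counts, and digestion libraries held 38, 5.67, 2.97, 2.34 and 5 values of 0. Every liver library above 0 counts was a pull-down or digestion library.

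The mean after pull-down, 0.616 normalised CPM, was 2.95 times the floor of the unselected libraries of batch 2 (3 counts over the group). It was 83.2 times the floor of the polyA libraries. Without the highest pull-down library these ratios were 2.42 and 68.4. The mean after digestion, 0.123, lay below that unselected floor, so a difference from unselected RNA was not detectable at this depth. The digestion mean was 16.6 times the polyA floor, and 4.14 times without the highest digestion library (mean 0.0307). All these ratios leave out the spread between libraries, 0 to 60 counts after pull-down, so they are not lower bounds of a fold. Pull-down against unselected did not pass (adjusted p = 0.202, edgeR). Digestion was lower than pull-down, with a log2 change of -2.76 (SE 0.775), with 1 digestion library, fast ramp and long fragments, as high as 0.860 normalised CPM. Terc passed the gene filter of this fit only through its counts after pull-down, so its comparisons with pull-down are given without a call. Tert, the catalytic protein of telomerase, was counted at 22 to 36 in the unselected libraries, in which Terc was at 0.

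Reads of Rmrp were divided between its identifiers in very different ways. The longer identifier held 21.4% of the Rmrp counts on average without selection in batch 1, and 36.1% (28.0% to 43.9%) without selection in batch 2. Also in batch 2, it held 18.6% after digestion (11.3% to 27.6%) and 34.1% after pull-down (3.17% to 59.7%). In the slow, long pull-down library the shorter identifier measured 937 normalised CPM and the longer identifier 30.7. In the medium-ramp, long library the values were 194 and 287. In polyA libraries each library put all its Rmrp counts on 1 identifier: 7 on the shorter and 2 on the longer one.

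**Figure D3:**
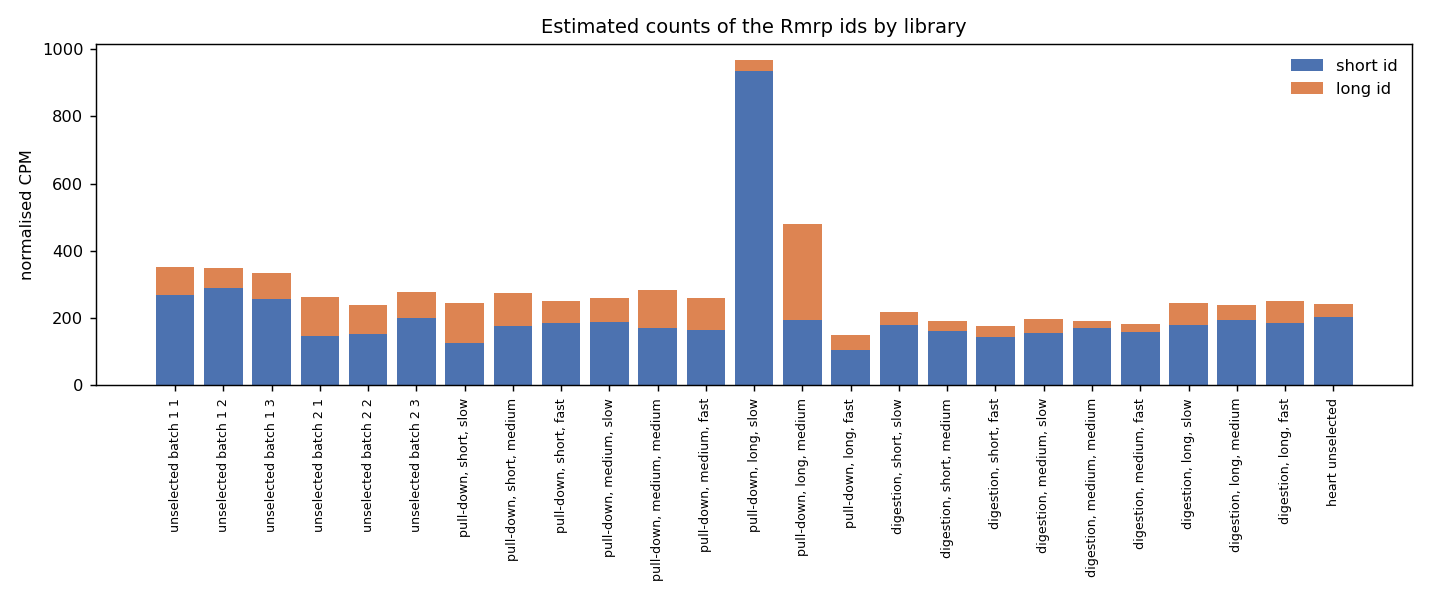
Stacked bars give normalised CPM of the shorter (blue) and longer (orange) Rmrp identifiers in each library except the polyA libraries, labelled by method, fragment length and ramp. The sum is between 148 and 353 in all but 2 bars, both long-fragment pull-down libraries, at 480.3 and 967.

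With all methods together, Rn7sk, Rpph1, Rn7s1 and the longer Rmrp identifier were higher with long than with short fragments. Which of them passed varied between single methods, but a difference between methods itself passed only for Rn7s1. Over the 27 selected libraries, long against short fragments gave a log2 change of 0.65 for Rn7sk (SE 0.115, adjusted p = 0.000102, edgeR), 0.59 for Rpph1 (SE 0.207, adjusted p = 0.0232) and 0.46 for Rn7s1 (SE 0.106, adjusted p = 0.00122). With the longer Rmrp identifier at 0.72 (adjusted p = 0.0463), 4 of 5 identifiers tested rose (the shorter Rmrp identifier did not pass, adjusted p = 0.0789), where 25.7% of 14454 genes rose and 46.3% passed in either direction. Summed Rmrp passed with 0.64 (SE 0.202, adjusted p = 0.0123), and with 0.33 without the shallow library (adjusted p = 0.0493). Rpph1 gave 0.26 without the shallow library (adjusted p = 0.162), and the longer identifier missed the threshold under 6 alternatives (adjusted p 0.0511 to 0.205). Ramp rate made no difference that passed: 0 of 5 identifiers, with 0.00692% of all genes.

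Within digestion, Rpph1 and Rn7sk were highest with long fragments. Rpph1 measured 811, 830 and 858 normalised CPM with short fragments, 855, 956 and 967 with medium ones and 1098, 1139 and 1165 with long ones. Rn7sk measured 2663, 2752 and 2935, then 2844, 3038 and 3077, then 3312, 3518 and 3628. All long libraries lay above all others for both RNAs, and the share of all genes that do so is not given here. Summed Rmrp averaged 196, 190 and 246 with short, medium and long fragments and the longer Rmrp identifier 33.6, 27.7 and 59.7, so medium lay below short for both. For Rn7s1 the lowest (16397) and the highest (21541) of the 9 libraries both had long fragments.

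Long against short gave 0.45 for Rpph1 (SE 0.0324, adjusted p = 8.21e-08, edgeR), 0.32 for Rn7sk (SE 0.0332, adjusted p = 4.20e-06), 0.20 for the shorter Rmrp identifier (SE 0.0473, adjusted p = 0.00775) and 0.83 for the longer one (SE 0.0907, adjusted p = 8.32e-06). Summed Rmrp gave 0.33 (SE 0.0407, adjusted p = 2.80e-05). Of the 5 identifiers, 4 rose, where 8.97% of 14897 genes rose and 18.3% passed in either direction. The shorter call was lost with DESeq2 (adjusted p = 0.132) and without the fast, long library, the medium-ramp, short one or the fast, short one (adjusted p 0.0698 to 0.0904). Rn7s1 gave 0.07 (95% interval -0.05 to 0.18) and did not pass; it passed with 0.18 (adjusted p = 0.00461) without the long library of medium ramp, and with 0.08 when no gene filter was used.

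Within polyA selection Rn7s1 rose by 0.92 (SE 0.149, adjusted p = 0.000251, edgeR) and Rn7sk by 0.89 (SE 0.175, adjusted p = 0.000997), 2 of 3 identifiers tested, where 27.7% of 14342 genes rose and 56.3% passed in either direction. Rn7s1 measured 8.93, 9.63 and 14.9 normalised CPM with short fragments, 12.3, 13.7 and 13.7 with medium and 19.2, 22.1 and 22.8 with long ones. The length effect on Rn7s1 was larger after polyA selection than after digestion by 0.84 (SE 0.197, adjusted p = 0.00231 for the difference itself), where 17.0% of all genes differed in this direction and 35.1% in either. No identifier passed for digestion minus pull-down (16.2% of genes) or polyA minus pull-down (3.79%).

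Within pull-down no identifier passed between long and short, where 6.23% of 14128 genes passed. The 3 long-fragment libraries went apart from each other. With slow, medium and fast ramp they gave 3695, 1860.4 and 556 normalised CPM for Rpph1, 967, 480.3 and 148 for summed Rmrp, and 17105, 10608 and 7432 for Rn7sk. For Rn7s1 they gave 83615, 61500 and 78870.5.

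The 6 pull-down libraries with short or medium fragments spanned only 1093 to 1375 for Rpph1, 244 to 284 for Rmrp and 6393 to 7095 for Rn7sk. The slow, long library was also the shallow one, with 12.7% of its counts on the rRNA gene CT010467.1 against at most 0.0216% in the other 8; the part of depth and remaining rRNA in these values was not tested. The medium and fast long libraries held 30.6 and 31.6 M counts, within the range of the other pull-down libraries. There was 1 library for each ramp and length, so ramp and library cannot be told apart. Without the shallow library Rn7sk passed, with 0.40 (adjusted p = 0.00505), and 5398 genes passed in place of 880; leaving out any other pull-down library gave 77 to 365.

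**Figure D4:**
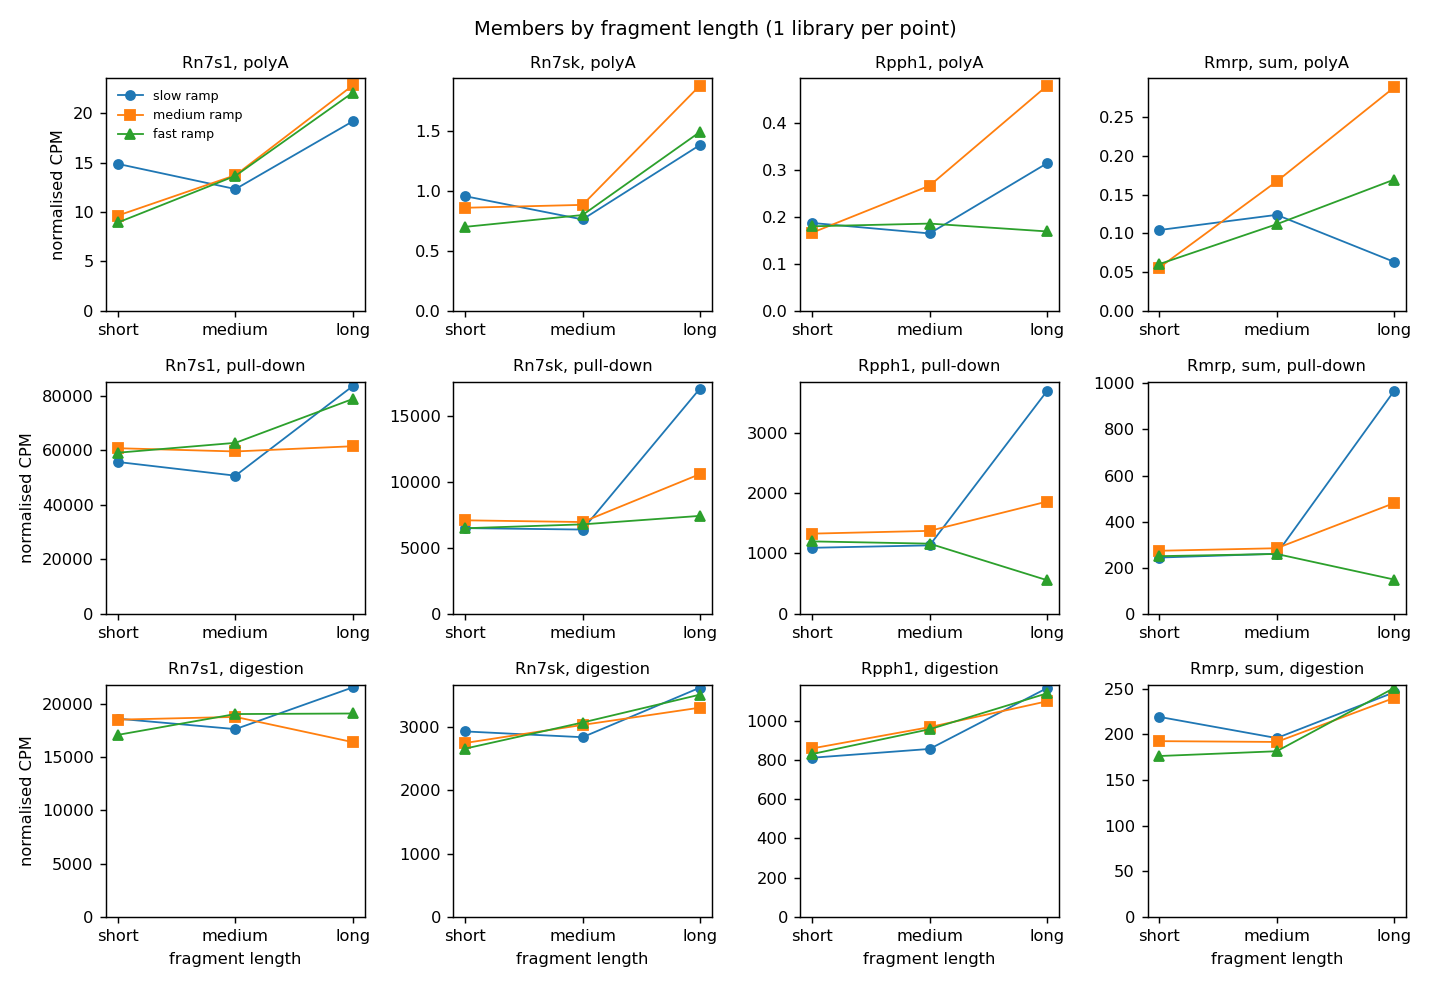
Each point is 1 library, placed by fragment length, with lines joining libraries of the same ramp rate; the y axes give normalised CPM from 0. Digestion libraries are highest with long fragments for Rn7sk and Rpph1, though Rn7sk at slow ramp falls from short to medium fragments. The 3 long pull-down libraries fan out, from 556 to 3695 for Rpph1.

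Heart and liver were compared in unselected RNA of batch 1, as 1 heart library against 3 liver libraries, with no test. Heart gave 3807 normalised CPM for Rn7sk against 4295 ± 63.3 in liver, 577 for Rpph1 against 820.1 ± 37.7, 242 for summed Rmrp against 346 ± 10.4 and 16806 for Rn7s1 against 27778 ± 822 (SD, n = 3). All 4 heart values lay below the liver range on this scale. That range comes from 3 libraries, and the share of all genes below it is not given here. The exact 95% Poisson interval of the heart value was 3764 to 3850.4 for Rn7sk and 231 to 253 for Rmrp, and covers counting error only.

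The heart to liver ratios were 0.886 for Rn7sk, 0.704 for Rpph1, 0.699 for Rmrp and 0.605 for Rn7s1. No member passed a 2-fold difference, which 49.5% of 12828 genes did. The scale decided the direction for 3 of these 4: on library totals the ratios ran from 1.09 to 1.38 for Rn7sk, Rpph1 and Rmrp, and Rn7s1 gave 0.942. The median gene moved too, by a log2 ratio of -0.09 with TMM and 0.55 with totals, since a scaling moves all genes of a library together. With TMM, the log2 ratio minus that of the median gene was -0.08 for Rn7sk, -0.41 for Rpph1, -0.42 for summed Rmrp and -0.63 for Rn7s1; the longer Rmrp identifier by itself gave -0.85. Fewer cells of a type and less RNA per cell cannot be told apart in such bulk samples. Terc had 2 counts in heart and 0 in liver, both at or under the floor, so no fold is given. The 6 hepatocyte markers summed to 169 normalised CPM in heart and 51503 to 52099.8 in liver, and the 6 cardiomyocyte markers to 24137 and 0.209 to 0.412.

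**Figure D5:**
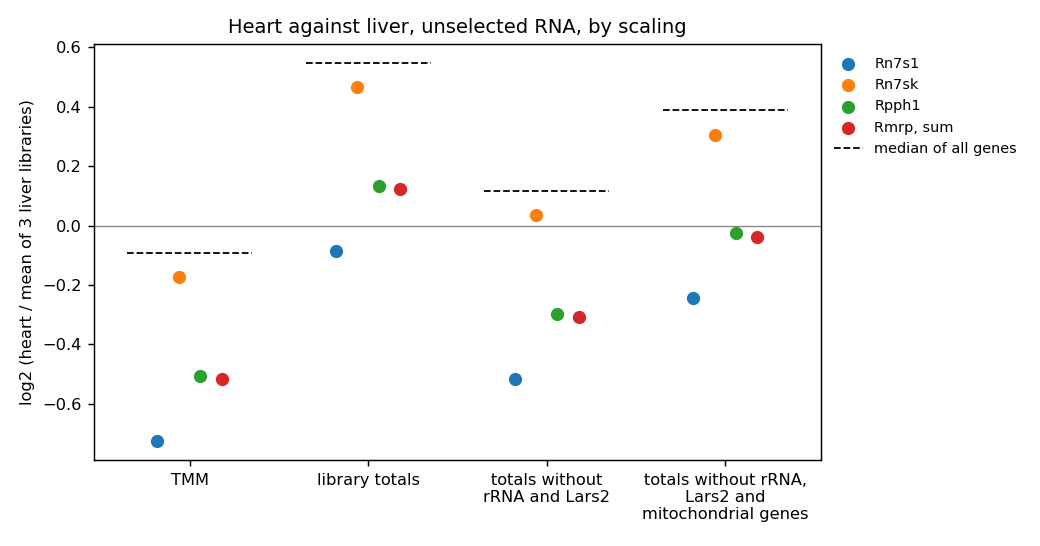
Points are log2 ratios of the heart library to the mean of 3 unselected liver libraries of batch 1, under 4 scalings, and dashed lines are the median of all genes on the same scale. A scaling shifts the points and the line together, so the panel shows 1 order, with Rn7sk just under the line (-0.08 with TMM) and Rn7s1 the lowest of the 4 RNAs plotted (-0.63).

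The protein partners of these RNAs are encoded by messenger RNAs; their log2 changes are given against the same unselected libraries. Of all 15422 genes, 25.6% rose and 24.8% fell after polyA selection, 17.5% rose and 15.3% fell after pull-down, and 7.08% rose and 7.64% fell after digestion, and the counts of each list stand against these shares, which hold for the TMM scale. For polyA selection, 50.8% of the genes that passed were higher with TMM, 37.3% on totals without rRNA genes and Lars2 and 97.6% on library totals. The medians over all genes were 0.04, 0.06 and 0.04. Of the 7 genes of the 7SK particle and P-TEFb, 4 rose and 2 fell after polyA selection (median log2 change 0.37), 0 rose and 5 fell after pull-down (median -0.32), and 1 rose and 1 fell after digestion (median 0.08). Larp7, which binds the U-rich end of 7SK, fell after digestion, with a log2 change of -1.17 (SE 0.182, adjusted p = 2.34e-05, edgeR). Cdk9, the kinase of P-TEFb, fell by 0.38 after pull-down and rose by 0.47 after polyA selection. Hexim1, the P-TEFb inhibitor, fell by 0.39 after pull-down. Ccnt1, a cyclin partner of Cdk9, fell by 0.78 after polyA selection, and Ccnt2 rose by 0.27 after digestion.

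Of 10 tested protein genes of RNase P and MRP, 6 rose and 0 fell after polyA selection, 2 rose and 0 fell after pull-down, and 0 rose and 2 fell after digestion, with medians of 0.50, 0.25 and -0.30. The 2 of 10 that rose after pull-down are near the 17.5% of all genes. Pop7 rose by 0.95 and Rpp25l by 0.85 after polyA selection. Pop5 rose by 0.79 after pull-down, as did Rpp25l by 0.65, and Pop5 fell by 0.72 and Pop4 fell by 0.61 after digestion. All 10 were lower after digestion than after pull-down on the TMM scale, where 36.0% of all genes were.

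Of 10 genes of SRP proteins and the SRP receptor, 6 rose and 1 fell after polyA selection, 4 rose and 2 fell after pull-down, and 1 rose and 4 fell after digestion, with medians of 0.37, 0.16 and -0.26. Srp54a rose and Srp54b fell in all 3 comparisons, with log2 changes of 1.12 and -1.36 after polyA selection, 1.39 and -1.38 after pull-down, and 0.93 and -1.48 after digestion. These are close copies of the gene for the SRP54 GTPase, so the counting could have split reads between them and their values are uncertain.

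Of 9 genes of telomerase proteins, 3 rose and 1 fell after polyA selection, 3 rose and 5 fell after pull-down, and 0 rose and 2 fell after digestion, with medians of 0.27, -0.39 and -0.10. The 4 of 9 called after polyA selection and the 2 of 9 after digestion are near the 50.4% and 14.7% of all genes called in either direction. Nhp2 and Nop10, H/ACA core proteins, rose by 0.82 and 0.57 after polyA selection. Wrap53, which binds the telomerase RNA, rose by 0.94 and Gar1 fell by 1.38 after pull-down. Dkc1, the dyskerin gene, fell by 0.66 and Nop10 fell by 0.36 after digestion.

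Of 13 polymerase III subunit genes, 6 rose and 1 fell after polyA selection, 5 rose and 1 fell after pull-down, and 0 rose and 2 fell after digestion, with medians of 0.39, 0.24 and -0.01. The 7 of 13 called after polyA selection and the 2 of 13 after digestion are near the shares of all genes, 50.4% and 14.7%. Polr3gl rose by 1.06 and Polr1d by 0.91 after polyA selection, Polr3c fell by 0.97 and Polr3d rose by 0.68 after pull-down, and Polr3c fell by 0.44 and Polr1d fell by 0.33 after digestion. Of 20 polymerase III factor genes, 7 rose and 6 fell, 2 rose and 4 fell, and 1 rose and 4 fell in the same order, with medians of 0.04, -0.08 and -0.05. The largest changes were in Snapc3 (-1.18) and Pou2f1 (-1.06) after polyA selection, Snapc2 (0.54) and Gtf3c2 (-0.51) after pull-down, and Snapc5 (-1.04) and Gtf3c6 (-0.86) after digestion.

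Of 7 annotated neighbours tested, 2 rose and 1 fell after polyA selection, 3 rose and 1 fell after pull-down, and 0 rose and 2 fell after digestion, with medians of 0.45, 0.41 and -0.12. The 3 of 7 called after polyA selection are not above the 50.4% of all genes. Ccdc107, which overlaps Rmrp on the other strand, rose by 0.91 and Rps29 by 0.85 after polyA selection. Parp2 rose by 0.58 and Ick fell by 0.66 after pull-down, and Rps29 fell by 0.52 and Nemf fell by 0.40 after digestion. Cell type markers moved as well: all 6 hepatocyte markers rose after polyA selection (Apoa1 by 0.89, Ttr by 0.87) and 5 after pull-down (Ttr by 0.69, Fgb by 0.46), and 1 rose (Ttr at 0.29) and 1 fell (Serpina1c at -0.24) after digestion. Of 8 markers of other liver and blood cells, 1 rose and 5 fell (log2 changes, Stab2 at -1.78, Ptprc at -1.69), 4 rose and 1 fell (Clec4f at 0.74, Col1a1 at -0.73), and 0 rose and 4 fell in the same order, with Hba-a1 at -7.42 and Hbb-bs at -5.65 after digestion. Their part in the members' changes was not tested.

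Over 33 liver libraries, which share 4 preparation methods, Pearson's r of log2(normalised CPM + 1) with Rn7sk was 0.998 for Hist1h1e, 0.996 for Ptprb and 0.994 for Reln. Rn7s1 had the same 3 genes, led by Reln at 0.996. Rpph1 was most like Hist1h1e (0.995) and Hist1h4d (0.992), and summed Rmrp was most like Hist1h1e (0.995), Hist1h4d (0.991) and Hist1h4c (0.989). Terc reached only 0.722, with Gm25492, typed as a small Cajal body RNA, then 0.715 with ENSMUSG00000116236 and 0.707 with Pgam1-ps2. Without the polyA libraries (n = 24) the values were lower and the order of these genes changed. For Rn7sk they were 0.873 with Hist1h1e, 0.799 with Reln and 0.729 with Ptprb. For Rpph1 they were 0.878 with Hist1h4d and 0.597 with Hist1h1e. For summed Rmrp they were 0.892 with Hist1h4c, 0.784 with Hist1h4d and 0.692 with Hist1h1e.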

How the data were processed

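RNA was sequenced in 33 liver libraries and 1 heart library. The authors deposited estimated counts per gene (expected counts, not normalised), 1 column per library. The submitters' processing notes name Salmon 1.9.0, UMI-tools 1.1.1, R 4.4.0 and GRCm38, with no role or order, and whether UMI duplicates were removed is not given in the sources used here. Salmon divides reads shared by several transcripts, so counts of near-identical genes are uncertain. Counts were rounded to whole numbers for tests. Symbols, types, coordinates and transcript sequences came from GENCODE M21, which matched 50820 of 51368 identifiers. The labels give the animal's sex both ways.

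Members, lists and tests were chosen with earlier results of these data known. edgeR 4.0.16 (R 4.3.3, limma 3.58.1) was used with filterByExpr, TMM, the quasi-likelihood test and Benjamini-Hochberg adjustment over all genes tested; a call is an adjusted p under 0.05. Method and batch comparisons used 33 liver libraries, with ramp and length as covariates (15422 genes); length and ramp used 27 libraries (14454 genes) or the 9 of a method. An SE is the log2 change divided by the square root of F. Normalised CPM are counts per 1000000 of TMM-scaled totals, and a floor is 3 counts. Named genes are the members, the 2 called genes of each list with the largest change per method, the 3 genes most alike in pattern and the nearest genes. A gene that this rule names and a sequence are not reported here. The scripts were tested on simulated data. DESeq2 1.42.0, other scalings, no gene filter, left-out libraries, blocks and matched libraries were alternatives. The 309 genes typed as rRNA or named Lars2 stayed in library totals unless stated. Within a batch, unselected libraries differed by 1.40 to 3.85 times the counting noise (chi-square per degree of freedom), so none was treated as a duplicate. Their replicate numbers did not pair them across batches (r of deviations -0.06 to 0.01 for same-numbered libraries).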

Additional observations from a re-analysis of the deposited data

Results flagged for a closer look

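Of 20 sets of 9 libraries (a member identifier or summed Rmrp in a method), 9 held a library far from the other 8. Chance gives about 1 in 20 only where the 9 libraries are alike, and these differ in ramp and length. Members share libraries, and both flags of summed Rmrp repeat those of the shorter identifier, so the sets are not independent. The share over all genes is not given here. The pull-down library with slow ramp and long fragments, which is also the shallow one, stood high for Rn7sk at 17105 normalised CPM (others 6393 to 10608), for Rpph1 at 3695 (others 556 to 1860.4), for the shorter Rmrp identifier at 937 (others 104 to 194) and for summed Rmrp at 967 (others 148 to 480.3). The pull-down library with medium ramp and long fragments stood high for the longer Rmrp identifier, at 287 (others 30.7 to 119). The polyA library with medium ramp and long fragments stood high for Rpph1 at 0.481 (others 0.165 to 0.315), for the shorter Rmrp identifier at 0.288 (others 0 to 0.124) and for summed Rmrp at 0.288 (others 0.0555 to 0.169). The digestion library with fast ramp and long fragments stood high for Terc at 0.860 (others 0 to 0.126). All 9 values come from libraries with long fragments.

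The effect of long against short fragments on Rn7s1 differed between polyA selection and digestion by 0.84 on the log2 scale, in a test of the difference itself.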

How the results depend on the processing

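Over the members' log2 changes, 824 values under alternatives kept direction and side of the threshold, 33 newly passed, 17 no longer passed and 36 changed sign, of which 31 passed in neither fit. The other 5 came with library totals, which move the median gene by 2.31 for pull-down and 2.85 for digestion against unselected: the longer Rmrp identifier after pull-down (2.20), and after digestion Rn7sk (2.42), Rn7s1 (2.38), the longer Rmrp identifier (1.33) and summed Rmrp (2.53). Without the shallow pull-down library, signs changed after pull-down for the shorter (-0.03) and longer (0.11) Rmrp identifiers, for the shorter one in digestion against pull-down (0.06), for long against short in pull-down in Rpph1 (-0.22) and the shorter identifier (-0.20), for digestion minus pull-down in Rpph1 (0.56), the shorter identifier (0.35) and summed Rmrp (0.09), for polyA minus pull-down in the shorter identifier (0.86), and for ramp in Rn7s1 (0.01). With slow-ramp, medium-fragment libraries they changed for summed Rmrp after pull-down (-0.04) and the shorter identifier after digestion (-0.11). Library totals turned the shorter identifier in digestion against pull-down (0.25) and in polyA minus pull-down (0.04), and in pull-down lengths Terc (-0.11) and the longer identifier (-0.12). DESeq2 turned both of the latter (-0.16 each) and the longer identifier by ramp (0.09). With 1 library left out, the longer identifier after pull-down ran from -0.17 to 0.13, and pull-down length changes from -1.73 to 1.50 for Terc, -0.20 to 1.57 and -1.10 to 0.55 for the shorter and longer Rmrp identifiers and -0.22 to 1.15 for Rpph1; Rn7s1 in digestion ran from -0.04 to 0.18. The cause was not tested. Library totals also called 6 members for pull-down and 5 for digestion against unselected, 2 for long against short over all methods and 1 for the length difference of polyA minus pull-down. Slow-ramp, medium-fragment libraries alone gave counts of 5 for pull-down and 4 for digestion, which rest on 1 library a method and are not read as calls. Without the shallow pull-down library 3 members were called for digestion against unselected, 1 for long against short in pull-down and 1 for polyA minus pull-down. DESeq2 called 1 member in each of the last 2, and no gene filter 1 in the former. Left-out libraries gave 0 to 1 members for digestion against unselected (0 without unselected replicate 1), 0 to 1 for long against short in pull-down (1 without the shallow library), 3 to 5 in digestion and 2 to 3 in polyA. For batch 2 against batch 1, the replicate block called 5 members (91 genes called in all) and the unselected libraries alone 4 (39 genes called in all), against 0. The shares of genes tested in these fits are not given here, and the replicate numbers did not pair the libraries. Over all genes, library totals called 14619, 14677 and 15143 for polyA, pull-down and digestion against unselected, in place of 7768, 5052 and 2271; 1302 were called for digestion without unselected replicate 2. Length calls were 77 to 5398 in pull-down (880 as reported), 1060 in digestion with DESeq2 (2727), 362 to 2791 for polyA minus pull-down (548), and for digestion minus pull-down 4607 with library totals and 4027 without the shallow library (2341). Ramp calls were 1 to 7. Summing Rn7s1 with Rn7s2 was not run. Depth limits Terc, and polyA values of Rmrp and Rpph1.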

Other observations

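Rn7s6, annotated at chr6:69516339-69516629 on the plus strand and named here after its values were seen, shares 252 aligned bases with Rn7s1 (86.6% of its length). It measured 7.82 ± 1.86 and 4.65 ± 0.985 normalised CPM in unselected batches 1 and 2 (SD, n = 3), 16.1 ± 12.4 after pull-down, 5.99 ± 3.24 after digestion and 0.0268 ± 0.0542 after polyA selection (SD, n = 9), and 3.40 in heart. Reads of 7SL could have been divided between these genes.

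The symbol Rnu3a, U3 small nucleolar RNA, also has a pair of identifiers with uneven counts. ENSMUSG00000065870 held 0 to 21 counts in unselected libraries and 0 to 573 after pull-down, while ENSMUSG00000106147 held 0 to 29 and 0 to 2.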
